A study of Nothobranchius furzeri with 20 samples.

Results

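Liver transcriptomes of the oldest fish in an age series, at 14 weeks, were set against those at 10 weeks. The 10 libraries were chosen by their age label alone, 5 fish at each age, out of 20 libraries that also cover 7 and 5 weeks. All were livers of male turquoise killifish (Nothobranchius furzeri) of the GRZ strain, and the labels give no treatment, genotype or other difference between the ages. The turquoise killifish lives in seasonal ponds and completes its life within a season, and GRZ is an inbred line known for an especially short life, which is why it serves as a model of vertebrate ageing. The liver is the main source of plasma proteins and a centre of lipid, sugar and amino acid metabolism, and in egg-laying fish its output also follows sex and season. A few secretory transcripts therefore tend to fill much of its messenger RNA. The question addressed here is how far gene expression still moved between the last pair of sampled ages, and how tightly the data bound that change.

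Messenger RNA was read by RNA-seq as a count of sequencing reads per gene. Totals ran from 24890288 to 34710218 counts per library at 14 weeks and from 24330529 to 42886761 at 10 weeks. Of 26739 gene identifiers, 16475 had enough reads for a test, and these took between 99.73% and 99.98% of the counts of each library. Values are given as CPM, counts scaled to a common library total with TMM factors so that libraries can be compared. A gene is called well measured when its mean over all 20 libraries reached 1 log2 CPM, which held for 11877 genes. The files do not pair identifiers with gene names, so genes are given by identifier, no function is attached to them, and the tissue label could not be checked against liver marker genes. A difference in bulk tissue cannot tell fewer cells of a type from less RNA per cell.

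A single fish has to be described before any result. Fish 5 at 14 weeks stood apart from the other 4 fish of its age. It was at least 2-fold above or below all 4 of them in 1493 of the 11877 well-measured genes (704 above, 789 below), whereas for the other fish of either age this count ran between 44 and 379, the highest being that of fish 2 at 10 weeks. Its total of 34710218 counts was the highest at 14 weeks, and it had 19200 genes detected at equal depth, inside the range of the other 14-week fish. Nothing in the labels sets it apart. Results below are given with and without it where they rest on it.

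The mean profiles of both ages were close. Across the 11877 well-measured genes, which are not independent replicates, mean log2 CPM at 14 and 10 weeks had a Pearson correlation of 0.983 and a Spearman correlation of 0.979. The fitted change (14 over 10 weeks) had a median size of 0.17 on the log2 scale, and in 95% of these genes its size was below 0.72. Fitted changes reached 2-fold in 260 of them, or 2.19%, with 126 higher (1.06%) and 134 lower (1.13%) at 14 weeks. Among the 4598 tested genes below 1 log2 CPM the same held for 748, or 16.3%, with wider intervals.

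**Figure D1:**
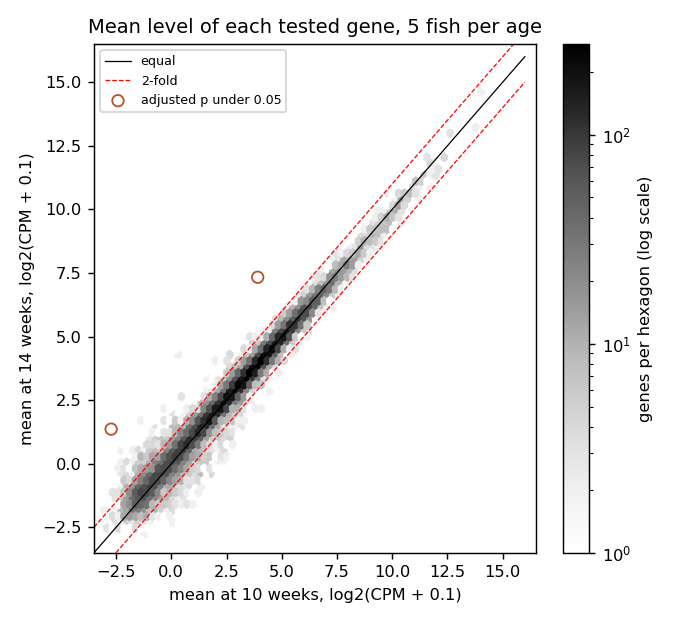
Mean level of each of 16475 tested genes at 14 weeks (vertical) against 10 weeks (horizontal), both as log2(CPM + 0.1), with shading for the number of genes, a solid line of equality and dashed lines at 2-fold. Most genes lie between the dashed lines, the cloud widens among genes of low level, and the 2 circled genes are those with an adjusted p under 0.05.

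The quasi-likelihood test of edgeR, with Benjamini-Hochberg adjustment over all 16475 genes and all 4 ages in the fit, called 2 genes (0.0121%), both higher at 14 weeks. No gene was called lower (0 genes), although 577 genes were higher (3.5%) and 480 lower (2.91%) at an unadjusted p under 0.05, which is 6.42% of those tested. DESeq2 called 34 of 16475 genes higher and 11 lower. Without 14-week fish 5 the same edgeR test called 26 of 16744 tested genes, 20 higher and 6 lower. Of these 16744 genes, 2159 had an unadjusted p under 0.05. With only the libraries of these ages, less that fish, the test called 83 of 15715 tested genes, 70 higher and 13 lower. There 2618 genes had an unadjusted p under 0.05. Leaving out single fish also lowered the count. It was 0 when any of fish 2, 3 and 4 at 10 weeks or fish 4 at 14 weeks was left out. It was 1 when fish 2 or fish 3 at 14 weeks, fish 1 at 10 weeks, fish 2 or fish 3 at 7 weeks, or fish 4 at 5 weeks was left out. The fish of the 2 ages did not overlap in 198 genes (1.2%), 84 with all 14-week fish above (0.51%) and 114 with all of them below (0.692%).

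A p that misses the threshold does not show that a gene stayed the same, so the size of change that the data exclude was tested directly. A gene counted as bounded within 2-fold when a pair of one-sided tests, from the same edgeR fit and adjusted over all genes, placed its change inside the 2-fold limit on either side. This held for 10278 of 16475 genes (62.4%). It held for 9299 of the 11877 well-measured genes (78.3%) and for 979 of the 4598 genes below 1 log2 CPM (21.3%). A narrower limit of 1.5-fold was passed by no gene after adjustment (0 genes), by 5119 genes at an unadjusted p under 0.05 (31.1%), by 0 genes in limma-voom and by 1510 in DESeq2. Without 14-week fish 5, 8912 genes were bounded within 2-fold (53.2% of 16744 tested), of which 8713 were also bounded with it.

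Bounds were tighter for more abundant genes, except at the top of the range. Around a fitted change, the 95% interval reached a median of 0.54 log2 units to either side among well-measured genes, which is 1.46-fold, and 1.103 units among genes below 1 log2 CPM. In decile 1, the least abundant of the tested genes by mean log2 CPM, 4.31% were bounded within 2-fold, and the interval reached 1.36 units to either side. In decile 8, with means between 3.98 and 4.67 log2 CPM, 87.5% were bounded and the interval reached 0.48 units. In decile 10 the share was 77.1% and the interval reached 0.54 units, so the most abundant genes were not those with the tightest bounds. Intervals reached past 4-fold in either direction in 1805 genes (11%), of which 449 were well measured (3.78% of these) and 1356 lay below 1 log2 CPM (29.5%).

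**Figure D2:**
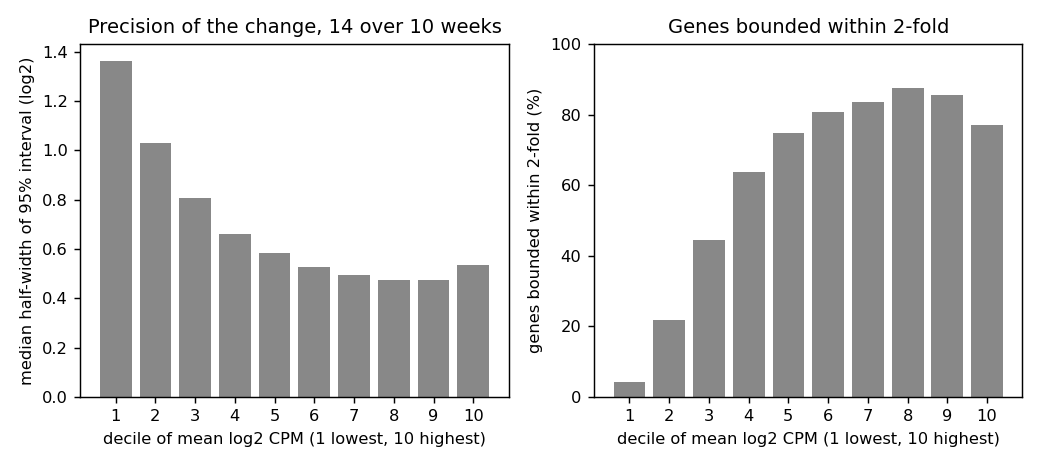
Left, median distance from the fitted log2 change (14 over 10 weeks) to either end of its 95% interval, by decile of mean log2 CPM. Right, percent of genes in each decile bounded within 2-fold. The bounded share grows up to decile 8, at 87.5%, and is lower again in decile 10, at 77.1%.

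The same bound gave other counts for the earlier pairs of ages, which share libraries with this one and were not tested against it. For 10 over 7 weeks 30.9% of the tested genes were bounded within 2-fold, and for 14 over 7 weeks 29.2%. The median size of the fitted log2 change of well-measured genes was 0.17 for 14 over 10 weeks, 0.48 for 10 over 7 weeks and 0.51 for 14 over 7 weeks.

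Whole profiles were then compared as distances between fish, taken as the root mean square difference in log2 CPM over the tested genes. Pairs of a 14-week and a 10-week fish were on average 0.921 apart. Pairs within 14 weeks were 0.927 apart and pairs within 10 weeks 0.834 apart. The mean distance between ages exceeded that within ages by 0.0400, which did not pass a one-sided exact permutation test over all assignments of fish to ages (p = 0.0952; the smallest p it can give is 0.00794). Without 14-week fish 5 the excess was 0.0970 (exact permutation p = 0.0159, over 126 assignments). That fish was singled out for its distance from its own age, so its removal favours a larger excess. The p does not allow for this choice, and it was under 0.05 in only 1 of 13 alternatives run, this one. For 10 against 7 weeks the excess was 0.357 and for 14 against 7 weeks 0.346, each at the smallest p the exact test can give, 0.00794.

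In terms of single genes, a 14-week and a 10-week fish were over 2-fold apart in a median of 13.1% of well-measured genes (25 pairs, from 5.41% to 21.4%). Within 14 weeks the median was 7.91% (10 pairs, from 4.41% to 27.8%) and within 10 weeks 10.5% (10 pairs, from 5.76% to 16.54%). The 4 pairs of 14-week fish 5 with its own age were the widest of all, at 25.8% to 27.8%, above its 5 pairs with 10-week fish at 13.1% to 21.4%. Among the 6 pairs of the other 14-week fish the range was 4.41% to 9.49%.

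**Figure D3:**
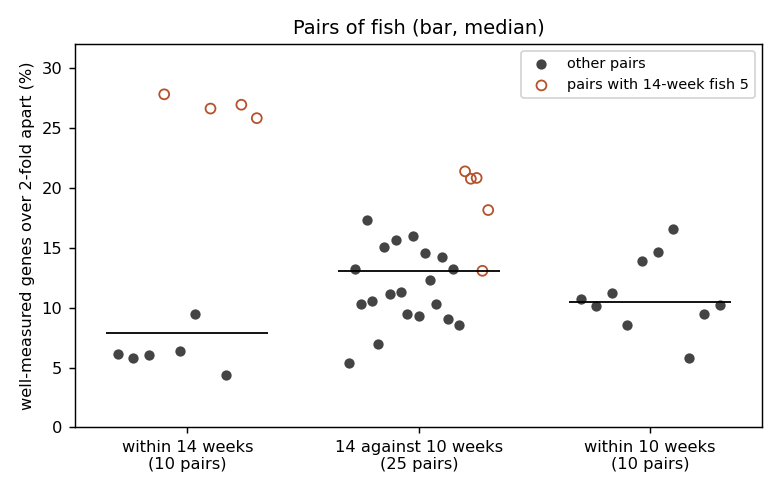
Percent of 11877 well-measured genes that were over 2-fold apart in each pair of fish, for pairs within 14 weeks, between the ages and within 10 weeks, with medians as bars at 7.91%, 13.1% and 10.5%. Open circles are pairs with 14-week fish 5, which lie highest within 14 weeks, at 25.8% to 27.8%.

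The nearest neighbour of each fish among all 20 was of its own age in 8 of these 10. Fish 1 and 2 at 14 weeks were each other's nearest, at a distance of 0.694, and so were fish 3 and 4 at 14 weeks, at 0.649. The nearest fish to 14-week fish 5 was 10-week fish 4, at 0.865. Of the 10-week fish, fish 1 was nearest to 14-week fish 1 and the other 4 were nearest to a fish of their own age. No 7-week or 5-week fish was the nearest to any of these 10.

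The first principal component of the 10 libraries, with 28.3% of the variance, set 14-week fish 5 against the rest of its age. The 14-week fish scored 49.0, 54.2, 45.0, 25.2 and -78.6 and the 10-week fish 4.83, -20.3, -18.7, -47.9 and -12.6, in order of fish number. Fish 1 to 4 at 14 weeks thus lay above all 10-week fish and fish 5 below all of them. The difference of the means was 37.9 (exact permutation p = 0.190, adjusted p = 0.343 over the 9 values per fish that were tested). Without 14-week fish 5 the components were fitted anew. The first of them then differed by 65.9 (exact permutation p = 0.0159, adjusted p = 0.107), which did not pass adjustment. Removal of a 14-week fish that lay below all 10-week fish favours a larger difference, and this p does not allow for it. The third component, with 14.2% of the variance, averaged 18.5 at 14 weeks and -18.5 at 10 weeks, a difference of 37.0 (exact permutation p = 0.0476, adjusted p = 0.214). It did not pass either, and without 14-week fish 5 the difference was -5.33.

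The 26 genes called without fish 5 were chosen for a large difference between the other 9 fish. Such a choice tends to leave any omitted 14-week fish nearer the 10-week mean, so the counts below are a description only. In 24 of the 26, the log2 CPM of fish 5 was nearer to the 10-week mean than to that of the other 4 fish at 14 weeks. The exceptions were the genes also called with fish 5. Fish 5 was nearer to the 10-week mean in 11365 of all 16475 tested genes (69.0%). That share involves no choice of genes, so it is not a matched reference for the 26 genes. Fish 5 itself was singled out for its distance from its own age, which favours a large share. The same share is not given for other fish. Separately, among the 1493 genes in which fish 5 stood 2-fold outside its age, the 10-week median was nearer to fish 5 than to the median of the other 4 fish in 246 (16.48%). Those genes were chosen by the distance of fish 5 itself, so this share cannot be set against the 24 of 26. For the other fish of both ages, in genes chosen by the same rule, this share ran from 2.27% to 61%. In 10 of the 26 genes fish 5 lay inside the range of the 10-week fish. In 4 it lay beyond that range on the side of its own age, and in 12 it lay beyond it on the other side.

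**Figure D4:**
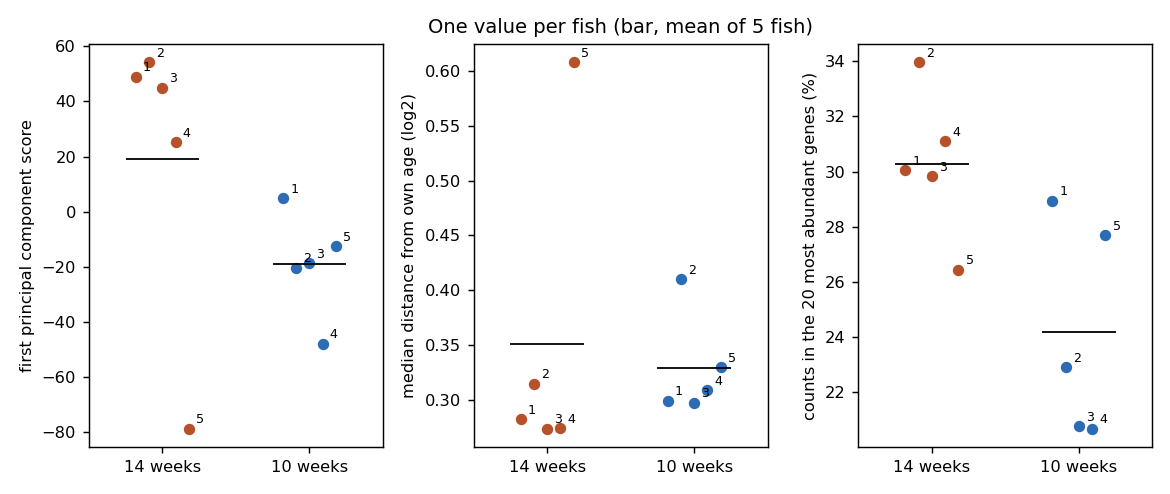
One point per fish, numbered within its age, with the mean of 5 fish as a bar, for 14 and 10 weeks. Left, score on the first principal component, where 14-week fish 5 lies at -78.6. Middle, median distance in log2 CPM from the other fish of its age, where it lies at 0.608. Right, percent of counts in the 20 most abundant genes, where means were 30.3% at 14 weeks and 24.2% at 10 weeks.

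Which age had the wider spread between fish depended on 14-week fish 5. For each fish the median distance of its log2 CPM from the median of the other 4 fish of its age was taken. At 14 weeks it was 0.283, 0.315, 0.274, 0.274 and 0.608 in fish 1 to 5, and at 10 weeks 0.299, 0.410, 0.298, 0.309 and 0.330. The means were 0.351 ± 0.145 at 14 weeks and 0.329 ± 0.0471 at 10 weeks (SD, n = 5 each; two-sided permutation p = 0.968). Each value depends on the other fish of its age and was kept fixed while ages were reassigned, so this p is approximate. Without fish 5 the difference, 14 minus 10 weeks, was -0.0407 (permutation p = 0.135, approximate likewise). Leaving out fish 1, 3, 4 or 5 at 10 weeks also turned its sign, to between -0.00934 and -0.000614. Each such step also left fewer fish in the reference of that age alone. Per gene, the median SD of log2 CPM over well-measured genes was 0.388 at 14 weeks and 0.344 at 10 weeks, and 0.260 at 14 weeks without fish 5. The SD was the larger one at 14 weeks in 58.4% of these genes, and in 33.8% without fish 5. Fish 5 was left out for its distance from its own age, which by itself lowers the spread at 14 weeks. The values without it therefore cannot show which age was the more variable.

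Genes that varied strongly from fish to fish were partly shared between the ages. An SD above 1 log2 unit was found in 638 well-measured genes at 14 weeks and in 448 at 10 weeks, with 202 in both lists, which is 31.7% of the 14-week list and 45.1% of the 10-week list. Over all well-measured genes such an SD was found in 5.37% at 14 weeks and 3.77% at 10 weeks. Without 14-week fish 5 the 14-week list held 257 genes (2.16%), of which 127 were in the 10-week list, 49.4% of the shorter 14-week list and 28.4% of the 10-week list. Here too a fish was left out at 1 age only, and it was chosen for its distance from that age. Beyond fish 5, single fish differed in the direction of the genes that set them apart. Fish 2 at 10 weeks was at least 2-fold below all the other 9 fish in 131 genes and above them in 3. Fish 3 at 10 weeks was above all other 9 in 86 genes and below in 3. Fish 5 at 14 weeks was above in 150 and below in 213.

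The abundance profile was top-heavy at both ages. The 20 genes with the largest share of reads took 30.1%, 34.0%, 29.8%, 31.1% and 26.4% of the counts in 14-week fish 1 to 5, against 28.9%, 22.9%, 20.8%, 20.7% and 27.7% in 10-week fish 1 to 5. The means were 30.3% ± 2.70 at 14 weeks and 24.2% ± 3.89 at 10 weeks (SD, n = 5 each). The difference of 6.08 percentage points had an exact permutation p of 0.0397 and an adjusted p of 0.214 over the 9 values per fish, so it did not pass. The ranges overlapped through 14-week fish 5 and 10-week fish 1 and 5. The effective number of genes, a measure that falls as few genes dominate, was 818 ± 101 at 14 weeks and 1006 ± 189 at 10 weeks (SD, n = 5 each; exact permutation p = 0.0952, adjusted p = 0.250). The share of the top 100 genes differed by 3.06 points (exact permutation p = 0.111, adjusted p = 0.250). Without 14-week fish 5 the differences were 7.03 points for the top 20, 3.95 points for the top 100 and -227 effective genes. Their exact permutation p were 0.0238, 0.0397 and 0.0476, each with an adjusted p of 0.107, so none passed. Fish 5 had the lowest shares and the most effective genes of its age, so its removal favours wider differences. These p do not allow for that choice.

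The ages shared 18 of their 20 genes with the largest read share, 90 of their top 100 and 459 of their top 500. With levels taken per length, as RPKM with each library's own total, they shared 14 of 20, 91 of 100 and 471 of 500. None of the 20 was called by edgeR (0 genes; 2 at an unadjusted p under 0.05), and 10 were bounded within 2-fold. Their fitted log2 changes ran from -0.70 to 0.99, with 15 above 0. Of the top 100, 29 had a fitted change above 0 and 71 below. The same split was 29 and 71 with RLE size factors and 30 and 70 with RPKM of own totals, and it was 46 and 54 without 10-week fish 2.

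Shifts shared by many genes were small. The median fitted log2 change was -0.102 in decile 10, where 33.4% lay above 0, and 0.104 in decile 1, where 55.9% did. In decile 10 the median was below 0 under every setting run. Over deciles 1 to 3 the median was 0.093, and 0.053 in RPKM of own totals at a pseudocount of 0.1. The deposited RPKM, divided by totals other than the libraries' own, moved the median of all tested genes to -0.066, against -0.001 in the edgeR fit, and put deciles 1 to 3 at -0.003. Taken per fish, the slope of log2 CPM deviation on mean log2 CPM was -0.0103 ± 0.0408 at 14 weeks and 0.0103 ± 0.0351 at 10 weeks (SD, n = 5 each; exact permutation p = 0.476). The slope on log2 gene length was 0.00710 ± 0.0505 at 14 weeks and -0.00710 ± 0.0417 at 10 weeks (SD, n = 5 each; exact permutation p = 0.619). Genes detected after thinning all libraries to 24330529 counts numbered 19480 ± 294 at 14 weeks and 19430 ± 303 at 10 weeks (SD, n = 5 each; exact permutation p = 0.786).

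The step from 10 to 14 weeks was set beside the step from 5 to 7 weeks, with which it has no library in common, though both come from 1 fit and 1 scaling. Well-measured genes with an unadjusted p under 0.05 were taken from the later step. Of the 293 that were higher at 14 weeks (2.47% of well-measured genes), 212 (72.4%) had a lower fitted mean at 7 than at 5 weeks, against 48.2% of all well-measured genes. Of the 319 that were lower at 14 weeks (2.69%), 230 (72.1%) had a higher fitted mean at 7 than at 5 weeks, against 51.8% of all. Both sets were about as large as this threshold picks when no gene changes. Genes also move together over few fish and are not independent, so these shares are a description and were not tested. Across all 11877 well-measured genes the 2 changes had a correlation of -0.16, which is a description only. Leaving out each of the 20 fish in turn moved the first share between 60.7% and 80.9% and the second between 60.9% and 79.8%. Without 14-week fish 5 they were 70.8% and 72.1%.

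Nfu_g_1_013095, a gene of 303 bp, was the only called gene with at least 5 CPM. It had 106, 329, 120, 182 and 67.4 CPM in 14-week fish 1 to 5, against 29.8, 17.4, 8.82, 9.04 and 9.66 CPM in 10-week fish 1 to 5. All 14-week fish lay above all 10-week fish, with fish 5 the lowest of its age. Its mean was 161 ± 103 CPM at 14 weeks and 14.9 ± 9.05 CPM at 10 weeks (SD, n = 5 each), a log2 change of 3.43 (SE 0.498, 95% interval 2.39 to 4.47, edgeR adjusted p = 0.0337). It averaged 34.5 ± 15.2 CPM at 7 weeks and 87.8 ± 53.8 CPM at 5 weeks (SD, n = 5 each). The 5-week fish ran from 22.5 to 143 CPM, a range that held fish 1, 3 and 5 at 14 weeks. The call was lost when fish 2, 3 or 4 at 14 weeks, any of fish 2 to 5 at 10 weeks, fish 2 or 3 at 7 weeks, or fish 4 at 5 weeks was left out, with adjusted p up to 0.219 and log2 changes from 2.99 to 3.84 over all fish left out. It was also lost with only the 10 libraries of these ages in the fit (edgeR adjusted p = 0.0721). In limma on deposited RPKM at a pseudocount of 1 it was lost as well (adjusted p = 0.113). Of 29 alternatives, which share most of their libraries, the call was lost in 12 and kept in 17. Those that kept it include DESeq2 (adjusted p = 2.1e-08) and limma-voom (adjusted p = 0.0148).

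The other called gene, Nfu_g_1_003558, lay under 5 CPM and is named here with its values already known. It had 31, 97, 73, 101 and 51 reads in 14-week fish 1 to 5 and 1, 2, 1, 0 and 3 reads in 10-week fish 1 to 5 (edgeR adjusted p = 0.0143). No 10-week fish was above 3 reads, the count at or under which a level is not resolved here, so no fold is given. Its call was lost when fish 4 at 14 weeks or any of fish 1 to 4 at 10 weeks was left out, with adjusted p up to 0.127. It was kept in the other 24 of 29 alternatives, DESeq2 among them (adjusted p = 2.03e-08).

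The next gene on the higher side, Nfu_g_1_018713, did not pass. It had 50.5, 95.1, 86.7, 54.3 and 17.9 CPM at 14 weeks and 5.10, 16.3, 5.30, 4.15 and 4.64 CPM at 10 weeks, in order of fish number. The groups did not overlap, which the rule for naming it and Nfu_g_1_013095 required. On the higher side 35 genes of at least 5 CPM met this. The fish nearest the other age were 14-week fish 5 and 10-week fish 2. Its log2 change was 3.11 (SE 0.605, edgeR adjusted p = 0.309), with an adjusted p of 0.0442 without 14-week fish 5 and of 0.000452 in DESeq2. It averaged 8.35 ± 2.13 CPM at 7 weeks and 48.5 ± 48.6 CPM at 5 weeks (SD, n = 5 each), so its level at 14 weeks lay in the range seen at 5 weeks.

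On the lower side, Nfu_g_1_016876 and Nfu_g_1_022232 had the smallest p among the 78 genes of at least 5 CPM whose fish did not overlap. Neither passed. Nfu_g_1_016876 had 11.7, 7.82, 8.20, 9.83 and 7.31 CPM in 14-week fish 1 to 5 and 19.1, 18.7, 14.8, 19.4 and 12.3 CPM in 10-week fish 1 to 5. Its log2 change was -0.91 (SE 0.179, 95% interval -1.28 to -0.54, edgeR adjusted p = 0.292). At 7 weeks it stood at 36.9 ± 1.27 CPM (SD, n = 5), above its level at both later ages. At 5 weeks it stood at 13.9 ± 3.42 CPM (SD, n = 5), between its means at 14 and 10 weeks. The 5-week fish ran from 11.11 to 19.55 CPM, a range that overlapped the 10-week fish and held 14-week fish 1. All of them lay below the 7-week fish, which ran from 35.45 to 38.22 CPM. The level of this gene thus rose from 5 to 7 weeks and did not fall at every age step. Nfu_g_1_022232 had 3.90, 3.88, 4.33, 3.85 and 7.60 CPM in 14-week fish and 10.1, 9.61, 35.29, 17.28 and 16.6 CPM in 10-week fish, with fish 5 highest at 14 weeks and fish 3 highest at 10 weeks. Its log2 change was -1.91 (SE 0.432, edgeR adjusted p = 0.380). It averaged 7.79 ± 6.71 CPM at 7 weeks and 6.44 ± 2.24 CPM at 5 weeks (SD, n = 5 each), both below its mean of 17.8 CPM at 10 weeks. DESeq2 called both, at adjusted p of 0.00807 for Nfu_g_1_016876 and 0.0149 for Nfu_g_1_022232.

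Among the 3 genes with the largest share of reads, Nfu_g_1_014314, of 783 bp, was also first by RPKM. It had 47220, 59180, 45450, 47150 and 44980 CPM in 14-week fish 1 to 5 and 43250, 43780, 18710, 24350 and 42390 CPM in 10-week fish 1 to 5. All 14-week fish lay above all 10-week fish, by a narrow gap for 3 of the 10-week fish. The log2 change of 0.50 did not pass (95% interval -0.12 to 1.12, edgeR adjusted p = 0.876). Nfu_g_1_015843 averaged 32650 ± 4826 CPM at 14 weeks and 29080 ± 6532 CPM at 10 weeks (SD, n = 5 each), and its change of 0.17 was bounded within 2-fold (95% interval -0.53 to 0.86). Nfu_g_1_005996 averaged 27930 ± 8633 CPM at 14 weeks and 17430 ± 11310 CPM at 10 weeks (SD, n = 5 each), with overlapping fish and a 95% interval of the log2 change of -0.16 to 1.52, which reaches past 2-fold.

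**Figure D5:**
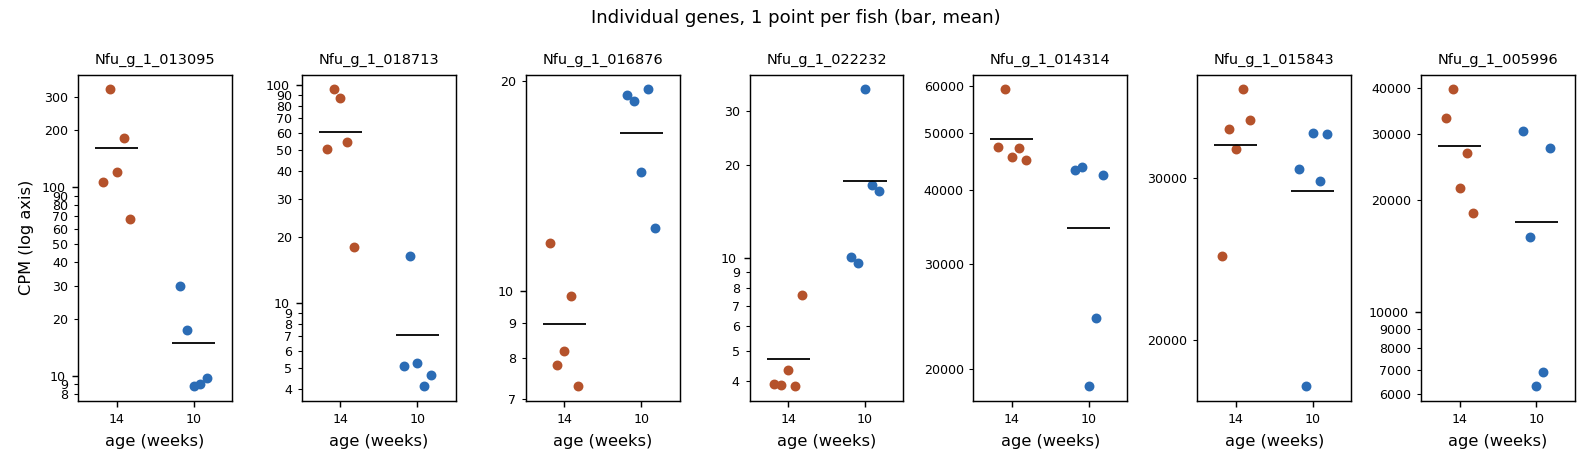
CPM on a log axis in each fish at 14 and 10 weeks, with the mean as a bar, for the genes named by a fixed rule. Of these, Nfu_g_1_013095 alone had an adjusted p under 0.05. Nfu_g_1_018713, Nfu_g_1_016876, Nfu_g_1_022232 and Nfu_g_1_014314 did not overlap between the ages and did not pass, and Nfu_g_1_015843 and Nfu_g_1_005996 overlapped.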

How the data were processed

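Per the labels, RNA of male GRZ livers went into TruSeq RNA v2 libraries, a kit without strand information. The submitters' processing notes name featureCounts 1.4.6-p4, STAR 2.4.1d and CASAVA 1.8.2. Build and annotation: not given in the sources used here. Whole-number counts for 26739 identifiers and a table of RPKM were deposited by the authors. None of the identifiers (0) matched the 38438 genes of the RefSeq table. Reads shared by near-identical or overlapping genes, or genes on opposite strands, cannot be assigned with certainty.

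The deposited RPKM values had been divided by a repeating cycle of 25 totals instead of each library's own total (residual SD 0.000137 log2 with the cycle, 0.224 with own totals). They served for gene lengths, found for 99.8% of tested genes, and for an alternative test.

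The main test was edgeR 4.0.16 (quasi-likelihood, TMM, filterByExpr) in R 4.3.3 on all 20 libraries, with 1 mean per age. Each gene had its own estimate of spread, shared by all ages in the fit. Fish outside the comparison therefore also entered its intervals and p-values. Calls needed a Benjamini-Hochberg adjusted p under 0.05. Bounds used 2 one-sided tests with Wald standard errors and 19.9 degrees of freedom. Alternatives used limma 3.58.1 and DESeq2 1.42.0. Log2 CPM had a prior count of 2. The steps were tested on simulated data. Those data were drawn independently for each gene and held no fish set apart from its age, so they do not cover these features of the real libraries. Over all 190 pairs of the 20 libraries, counts gave a chi-square of at least 64.8 per degree of freedom, so each was counted as a sample. Labels give no batches and say no more about how separate the animals were, so p-values reflect only the spread among these libraries. Fish are numbered by accession order, as names only.

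Genes named were, in each direction, the 2 of at least 5 CPM at the higher age whose fish did not overlap, called genes first by size of change and then others by unadjusted p, and the 3 of highest mean CPM. The comparison, rule and tests were chosen with earlier results of these data known. Levels of up to 3 reads were treated as unresolved, which covers counting error only.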

Additional observations from a re-analysis of the deposited data

Results flagged for a closer look

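Among 38 groups of 5 values examined, 8 held a fish whose gap to the next was large against the range of its group. Chance flags about 1 in 20 such groups when their values are independent and normally distributed. These groups share the same fish, and some values depend on the other fish. The 8 of 38 therefore cannot be set against that rate. The causes were not tested.

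At 14 weeks, fish 5 was set apart on the first principal component, at -78.6 against 25.2 in the next fish, and in its median distance from its own age, 0.608 against 0.315 log2 units. It also had the highest Nfu_g_1_022232 at that age, with a log2(CPM + 0.1) of 2.94 against 2.15. Fish 2 at 14 weeks had the highest Nfu_g_1_014314, with 15.9 against 15.5 on that scale.

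At 10 weeks, fish 3 lay at -64.6 on the third component, against -15.7 in the next fish. Fish 2 had the largest median distance from its age, 0.410 against 0.330 log2 units. The same fish had the highest Nfu_g_1_018713, with a log2(CPM + 0.1) of 4.04 against 2.43, and the lowest Nfu_g_1_015843, with 14.1 against 14.9.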

How the results depend on the processing

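The count bounded within 2-fold moved by less than 1.5 times under all 26 alternatives run for it, between 8912 and 10828 genes. As a share of tested genes it ran from 42.4% with no count filter to 70% with the 10 libraries of these ages. The genes tested numbered 22484 and 15459 in these fits. Without 14-week fish 5 the share was 53.2%. The count bounded within 1.5-fold was 0 except in DESeq2 (1510). The 2 calls became 45 in DESeq2, 1 with the 10 libraries of these ages only, 1 with deposited RPKM at a pseudocount of 1 and 83 with the 9 libraries less 14-week fish 5, an alternative chosen after seeing the data. With each of the 20 fish left out in turn the count ran from 0 to 26. No value per fish passed adjustment under any of 14 alternatives (0 values).

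With each of the 10 fish left out, the excess of distance between the ages ran from 0.0148 to 0.0970. It passed only without 14-week fish 5, the fish singled out for its distance from its own age. The difference in spread ran from -0.0407 to 0.0662 and did not pass. Components were fitted anew in these alternatives and matched by rank, so a component of given rank need not be the same axis. Uncalled differences changed sign as follows. The second component's was 2.73, -8.11 with library totals in place of TMM and -20.7 to 27.2 with fish left out. The third component's ran from -5.33 to 43.5, genes detected from -30.8 to 176, and the slope on gene length from -0.00216 to 0.0311. The cause was not tested. No paired analysis was possible because the fish numbers follow accession order and link no fish between ages. Of genes below 1 log2 CPM 21.3% were bounded; the part of sequencing depth in this was not tested.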
